A study of Mus musculus with 6 samples.

Results

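Hypoxia-inducible factor (HIF) and its target genes were followed in activated mouse macrophages through 9 genes: Hif1a, Egln1, Egln3, Slc16a3, Ero1l, P4ha1, Bnip3, Vegfa and Ndrg1. They were picked by name as the HIF-1 subunit gene and known hypoxia-regulated genes, and are 9 of the 23337 gene symbols in the deposited count table. Ero1l is the older symbol of Ero1a. Transcripts were measured by RNA sequencing in bone marrow-derived macrophages, which are grown from marrow with the growth factor M-CSF. LXRdKO cells lacked both liver X receptors, LXRα (Nr1h3) and LXRβ (Nr1h2), which are sterol-sensing nuclear receptors. Ch25hKO cells lacked Ch25h, which encodes the enzyme that makes the oxysterol 25-hydroxycholesterol, and WT cells were wild type. All groups were given as strain C57BL/6, were cultured until day 7 and received LPS, an endotoxin from E. coli, at 100 ng/ml for 8 h. Each genotype had 2 libraries.

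HIF is a transcription factor made of an oxygen-regulated α subunit and the stable partner ARNT. When oxygen is plentiful, prolyl hydroxylases of the EGLN family modify HIF-1α, which the VHL ubiquitin ligase then marks for destruction. When oxygen is short, or in macrophages after LPS, HIF-1α accumulates and raises genes of glycolysis, lactate export, vessel growth and mitochondrial turnover, and Egln1 and Egln3 are among its own targets. No oxygen level of the cultures was given in the sources used here and no library lacked HIF or LPS. The dependence of these genes on HIF, hypoxia or LPS was therefore not measured, and only differences between the genotypes were.

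Total counts ranged from 41650513 to 45872964 per library, and the lowest count of any of the 9 genes was 1320. Targeted genes were low where the labels say so: Nr1h3 and Nr1h2 stood at 5.64% and 2.59% of the WT level in LXRdKO, and Ch25h at 1.61% of the WT level in Ch25hKO. Replicate libraries varied beyond counting error: their chi-square divided by its degrees of freedom was 4.13 in LXRdKO, 4.95 in Ch25hKO and 11.7 in WT. The labels do not say whether libraries of a genotype came from separate animals or cultures, so p-values reflect no more than the variation among these libraries, and that may be technical. In bulk RNA, a change in the share of cells that express a gene and a change in RNA per cell cannot be told apart. Levels are in CPM, the counts per 1000000 counts of a library after TMM scaling. Each difference is a log2 fold change with its standard error (n = 2 libraries in each genotype). Adjusted p-values are from edgeR's quasi-likelihood test over 12923 genes, with a gene called at an adjusted p under 0.05.

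HIF binds DNA at a short core, ACGTG or GCGTG. RefSeq promoter windows on GRCm38.p6, from 250 bases before to 50 after a start site, were matched for 8 of the 9 genes, and Vegfa had 2 start sites. Searched on both strands, all 8 matched genes held at least 1 core in a window. For Vegfa this holds only for the window of its internal start site (chr17:46025114-46025413). That window lies within the body of the gene, and the window at the upstream start held 0 cores. Among 32851 promoter windows of the same length, counted by window and not by gene, 19.6% held ACGTG, 32.4% held GCGTG and 43.8% held either. The windows of these 8 genes were 54.7% to 86.0% G and C, against a median of 52.7% over all windows. The sequences of 5 genes that differed between genotypes are shown, 5′ to 3′ on the strand of the gene, with each core on either strand in capitals. The E-box CACGTG, which holds ACGTG on both strands and was in 7.15% of all windows, is part of the Bnip3 and Hif1a windows.
Egln3 (chr12:54203825-54204124, minus strand): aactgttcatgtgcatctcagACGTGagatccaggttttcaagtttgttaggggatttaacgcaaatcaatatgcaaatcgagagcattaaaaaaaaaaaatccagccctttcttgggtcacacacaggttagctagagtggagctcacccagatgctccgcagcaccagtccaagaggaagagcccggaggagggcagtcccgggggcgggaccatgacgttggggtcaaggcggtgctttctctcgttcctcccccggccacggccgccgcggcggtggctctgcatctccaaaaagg
Slc16a3 (chr11:120948817-120949116, plus strand): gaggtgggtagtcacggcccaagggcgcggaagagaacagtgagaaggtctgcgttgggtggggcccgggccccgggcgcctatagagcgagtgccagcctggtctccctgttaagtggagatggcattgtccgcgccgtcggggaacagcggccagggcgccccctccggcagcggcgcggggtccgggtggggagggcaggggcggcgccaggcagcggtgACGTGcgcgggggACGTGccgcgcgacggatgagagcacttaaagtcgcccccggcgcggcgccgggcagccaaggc
Ero1l (chr14:45318523-45318822, minus strand): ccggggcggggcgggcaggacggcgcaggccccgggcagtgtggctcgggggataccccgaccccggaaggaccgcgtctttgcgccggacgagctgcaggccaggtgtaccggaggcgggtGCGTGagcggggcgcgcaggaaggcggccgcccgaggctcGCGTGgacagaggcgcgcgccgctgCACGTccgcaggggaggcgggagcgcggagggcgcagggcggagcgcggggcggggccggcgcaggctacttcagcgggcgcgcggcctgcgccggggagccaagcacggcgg
Bnip3 (chr7:138909457-138909756, minus strand): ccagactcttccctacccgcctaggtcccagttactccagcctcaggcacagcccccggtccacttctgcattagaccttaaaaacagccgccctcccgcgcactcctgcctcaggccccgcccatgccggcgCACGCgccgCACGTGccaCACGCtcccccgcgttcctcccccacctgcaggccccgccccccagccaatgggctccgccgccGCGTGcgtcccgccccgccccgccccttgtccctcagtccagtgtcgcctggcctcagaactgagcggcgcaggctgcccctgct
Vegfa, upstream start (chr17:46032328-46032627, minus strand): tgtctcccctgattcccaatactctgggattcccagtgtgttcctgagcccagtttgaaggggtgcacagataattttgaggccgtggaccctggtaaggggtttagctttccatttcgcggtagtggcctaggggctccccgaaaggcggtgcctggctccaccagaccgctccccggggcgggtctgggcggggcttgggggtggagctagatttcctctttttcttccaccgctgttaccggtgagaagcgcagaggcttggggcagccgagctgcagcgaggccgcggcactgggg

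The Egln3 window had 1 core, at 229 to 225 bases before the start. Slc16a3 had 2 copies of ACGTG close to the start, at -27 to -23 and -14 to -10. Ero1l had 3 cores, between -128 and -59. Bnip3 had 5 core matches, 2 of them from the palindromic E-box at -108 to -103. The upstream Vegfa window had 0 cores and the window of its internal start had 2, between -218 and -207. Hif1a had 3 core matches, 2 of them from an E-box at -135 to -130. Egln1 had 2 cores and P4ha1 had 3. A match describes letters in the window and does not show that HIF binds there.

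Without Ch25h, the 9 genes did not move together. Egln3, Ero1l, Egln1, Slc16a3 and Bnip3 rose against WT, Vegfa, Ndrg1 and P4ha1 fell, and Hif1a did not pass the test. That is 8 of 9 called, where 39.3% of all genes tested were called. Of these, 5 were higher, against a background of 19.8%, and 3 were lower, against a background of 19.5%. All 9 genes are well expressed, and in a fit limited to 8363 genes with at least 5 CPM in at least 2 libraries the background rose to 49.8%. The libraries of Ch25hKO and WT did not overlap for any of the 9 genes, with 6 higher and 3 lower in both Ch25hKO libraries. Over all genes tested 68.3% did not overlap, 35.6% higher and 32.7% lower. The median log2 fold change of the 9 genes was 0.22, and that of all genes tested 0.0064.

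Without the LXRs, 5 of the 9 genes passed the test against WT. Egln3, Egln1 and Slc16a3 rose, Ndrg1 and Vegfa fell, and Hif1a, Ero1l, Bnip3 and P4ha1 did not pass the test. The 5 called genes compare with 31.8% of all genes tested, the 3 higher with 16.4% and the 2 lower with 15.5%. With at least 5 CPM, the background was 40.5%. Libraries did not overlap for 7 of the 9 genes, 4 higher and 3 lower, against 63.6% of all genes tested, 32.9% higher and 30.6% lower. The median log2 fold change of the 9 genes was -0.0031, and that of all genes tested 0.0026. WT libraries are shared by the comparisons of both knockouts, so the differences of LXRdKO and Ch25hKO over WT are not independent.

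The knockouts were also compared directly. In LXRdKO, Ero1l, Bnip3, Egln1 and Slc16a3 were lower than in Ch25hKO, Vegfa and P4ha1 were higher, and Hif1a, Egln3 and Ndrg1 did not pass the test. Of all genes tested, 37.9% were called in this comparison, 19.3% higher and 18.6% lower, and the background was 50.5% with at least 5 CPM. Libraries did not overlap for 8 of the 9 genes, 2 higher and 6 lower, against 71.2% of all genes tested, 34.7% higher and 36.6% lower. The median log2 fold change of the 9 genes was -0.12, and that of all genes tested -0.013.

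**Figure D1:**
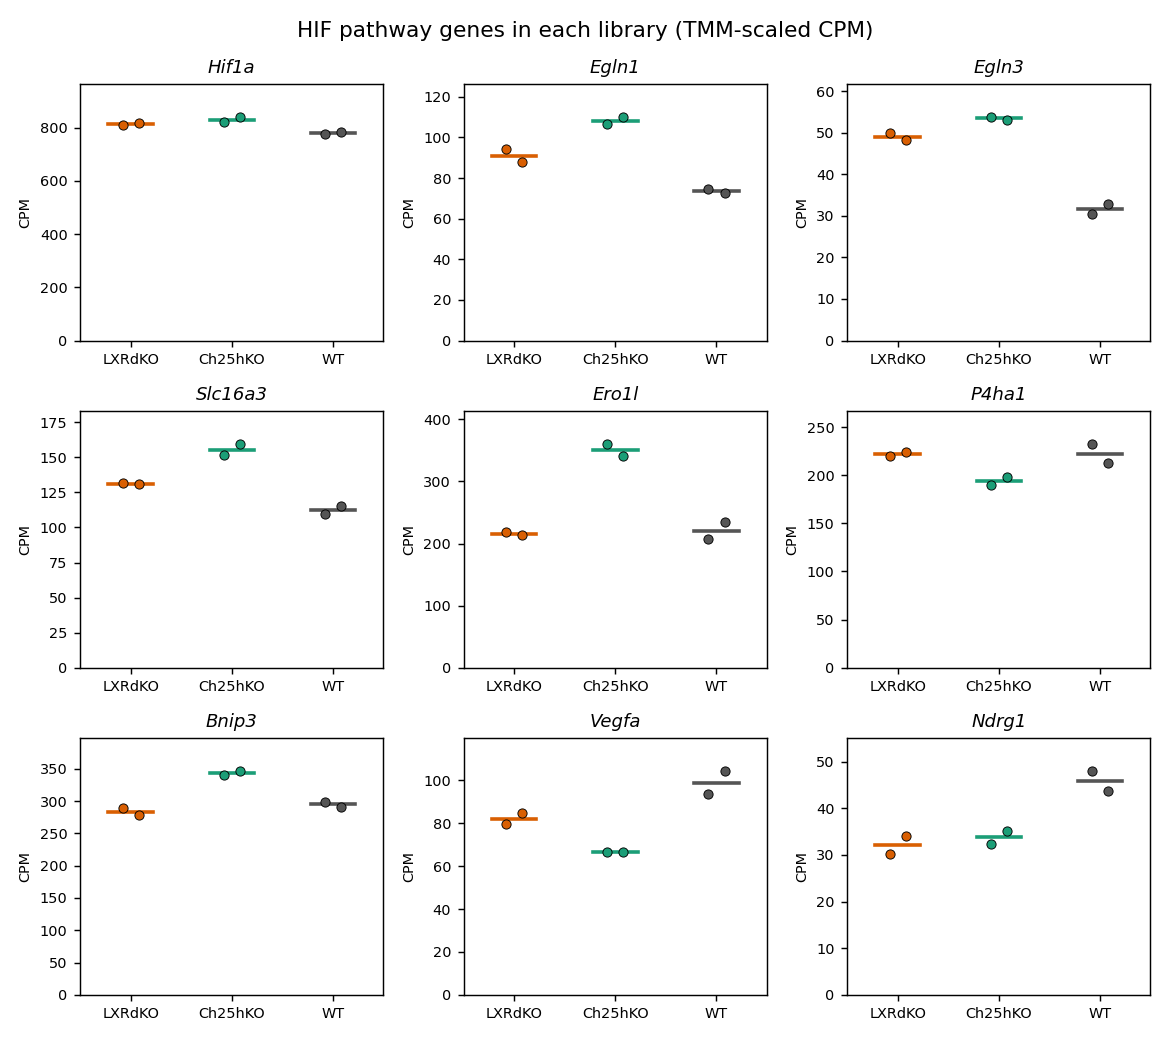
Level of each of the 9 genes, in TMM-scaled CPM on axes that start at 0, with 1 point per library and a bar at the mean of the 2 libraries of a genotype. Egln1, Egln3 and Slc16a3 lay higher in both knockouts than in WT, Ero1l and Bnip3 stood out in Ch25hKO, Vegfa was lowest in Ch25hKO and Hif1a lay between 775 and 839 CPM in all libraries.

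Hif1a (chr12:73901375-73947530, plus strand, GRCm38) encodes the oxygen-regulated HIF-1α. Its mRNA had 810.3 and 817 CPM in LXRdKO, 820.1 and 839 CPM in Ch25hKO, and 775 and 783 CPM in WT. The WT libraries were the lowest, and the LXRdKO and Ch25hKO libraries lay above them without overlap. The difference was 0.06 ± 0.05 in LXRdKO over WT (edgeR adjusted p = 0.399) and 0.09 ± 0.05 in Ch25hKO over WT (edgeR adjusted p = 0.186). The 95% intervals, -0.05 to 0.17 and -0.02 to 0.20, exclude changes as large as those of Egln3. HIF-1α is also controlled at the protein level, which was not measured here.

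Egln1 (chr8:124908587-124949324, minus strand, GRCm38) encodes PHD2, the prolyl hydroxylase that does most of the oxygen sensing in many cells. Egln1 had 94.3 and 87.7 CPM in LXRdKO, 106 and 110 CPM in Ch25hKO, and 74.8 and 72.5 CPM in WT. The 3 genotypes did not overlap, with Ch25hKO on top and WT at the bottom. The differences were 0.30 ± 0.05 in LXRdKO over WT (edgeR adjusted p = 0.000323) and 0.56 ± 0.05 in Ch25hKO over WT (edgeR adjusted p = 3.24e-07). LXRdKO was 0.25 ± 0.05 below Ch25hKO (log2 fold change -0.25, edgeR adjusted p = 0.00116).

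Egln3 (chr12:54178981-54203860, minus strand, GRCm38) encodes PHD3, a paralogous hydroxylase whose transcript is strongly induced by hypoxia. Egln3 had 49.8 and 48.3 CPM in LXRdKO, 53.7 and 53.1 CPM in Ch25hKO, and 30.5 and 32.9 CPM in WT. Every knockout library lay above every WT library. The rise was 1.55-fold in LXRdKO over WT (0.63 ± 0.06, edgeR adjusted p = 2.44e-07) and 1.69-fold in Ch25hKO over WT (0.75 ± 0.06, edgeR adjusted p = 1.94e-08), the largest increase among the 9 genes in both comparisons. LXRdKO and Ch25hKO differed by -0.12 ± 0.06, which missed the threshold (edgeR adjusted p = 0.0981). It passed in a fit of only these 2 genotypes (-0.12, edgeR adjusted p = 0.0392) and without either WT replicate (edgeR adjusted p = 0.0412 without WT replicate 1 and 0.0458 without WT replicate 2).

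Slc16a3 (chr11:120948480-120960868, plus strand, GRCm38) encodes MCT4, which exports the lactate made by glycolysis. Slc16a3 had 132 and 131 CPM in LXRdKO, 152 and 159 CPM in Ch25hKO, and 109 and 115 CPM in WT. As with Egln1, the genotypes formed 3 steps without overlap. It rose 1.17-fold in LXRdKO over WT (0.23 ± 0.05, edgeR adjusted p = 0.00284) and 1.39-fold in Ch25hKO over WT (0.47 ± 0.05, edgeR adjusted p = 1.44e-06). LXRdKO lay below Ch25hKO (-0.24 ± 0.05, edgeR adjusted p = 0.00105).

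Ero1l (chr14:45283087-45318771, minus strand, GRCm38) encodes an oxidase that drives disulfide bond formation in the endoplasmic reticulum. Ero1l had 218 and 213 CPM in LXRdKO, 360 and 342 CPM in Ch25hKO, and 207 and 234 CPM in WT. Both Ch25hKO libraries stood far above the rest, while LXRdKO and WT overlapped. It rose 1.59-fold in Ch25hKO over WT (0.67 ± 0.06, edgeR adjusted p = 9.86e-08). In LXRdKO over WT it was at -0.03 ± 0.06 (edgeR adjusted p = 0.717, 95% interval -0.16 to 0.09). The direct comparison gave -0.70 ± 0.06 in LXRdKO over Ch25hKO (edgeR adjusted p = 3.82e-08), the largest difference among the 9 genes between the knockouts.

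P4ha1 (chr10:59323296-59373304, plus strand, GRCm38) encodes the catalytic subunit of the prolyl hydroxylase that modifies collagen. P4ha1 had 219.7 and 224 CPM in LXRdKO, 189 and 198 CPM in Ch25hKO, and 232 and 213 CPM in WT. The Ch25hKO libraries were the lowest, and LXRdKO lay within the WT range. It fell by 0.20 ± 0.06 in Ch25hKO over WT (edgeR adjusted p = 0.00777), which missed the threshold once Ch25hKO replicate 1 was left out (-0.18, edgeR adjusted p = 0.113). LXRdKO over WT gave -0.0031 ± 0.06 (edgeR adjusted p = 0.974). LXRdKO was higher than Ch25hKO by 0.20 ± 0.06 (edgeR adjusted p = 0.00851), and missed the threshold once Ch25hKO replicate 1 (0.16, edgeR adjusted p = 0.143) or LXRdKO replicate 2 was left out (0.18, edgeR adjusted p = 0.0950).

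Bnip3 (chr7:138890836-138909519, minus strand, GRCm38) encodes a mitochondrial protein that marks mitochondria for removal by autophagy. Bnip3 had 289 and 278 CPM in LXRdKO, 341 and 346 CPM in Ch25hKO, and 299 and 291 CPM in WT. Ch25hKO was above and LXRdKO just below WT, without overlap. It rose 1.16-fold in Ch25hKO over WT (0.22 ± 0.05, edgeR adjusted p = 0.00238) and was at -0.06 ± 0.05 in LXRdKO over WT (edgeR adjusted p = 0.423, 95% interval -0.17 to 0.05). The knockouts differed by -0.28 ± 0.05 in LXRdKO over Ch25hKO (edgeR adjusted p = 0.000296).

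Vegfa (chr17:46016993-46032369, minus strand, GRCm38) encodes the vascular growth factor that is a classical HIF target. Vegfa had 79.5 and 84.7 CPM in LXRdKO, 66.5 and 66.7 CPM in Ch25hKO, and 93.6 and 104 CPM in WT. The order of the genotypes was the reverse of that of Egln1 and Slc16a3, again without overlap. Vegfa fell by 0.57 ± 0.06 in Ch25hKO over WT (edgeR adjusted p = 6.30e-07). It fell by 0.27 ± 0.06 in LXRdKO over WT (edgeR adjusted p = 0.00181), which missed the threshold once LXRdKO replicate 1 was left out (-0.22, edgeR adjusted p = 0.0573). LXRdKO was higher than Ch25hKO (0.30 ± 0.06, edgeR adjusted p = 0.000518).

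Ndrg1 (chr15:66929318-66969640, minus strand, GRCm38) is a stress-responsive gene known for its induction by hypoxia. Ndrg1 had 30.1 and 34.0 CPM in LXRdKO, 32.4 and 35.1 CPM in Ch25hKO, and 47.9 and 43.6 CPM in WT. Both knockouts lay below WT and overlapped with each other. It fell 1.43-fold in LXRdKO over WT (-0.51 ± 0.07, edgeR adjusted p = 1.92e-05) and 1.36-fold in Ch25hKO over WT (-0.44 ± 0.07, edgeR adjusted p = 6.50e-05). LXRdKO over Ch25hKO was at -0.07 ± 0.07 (edgeR adjusted p = 0.444, 95% interval -0.22 to 0.07). Hif1a, Bnip3 and Ndrg1 share exon bases with antisense or same-strand transcripts in the GENCODE annotation, and since the strand setting of the counting is not given, reads from those transcripts may be included.

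**Figure D2:**
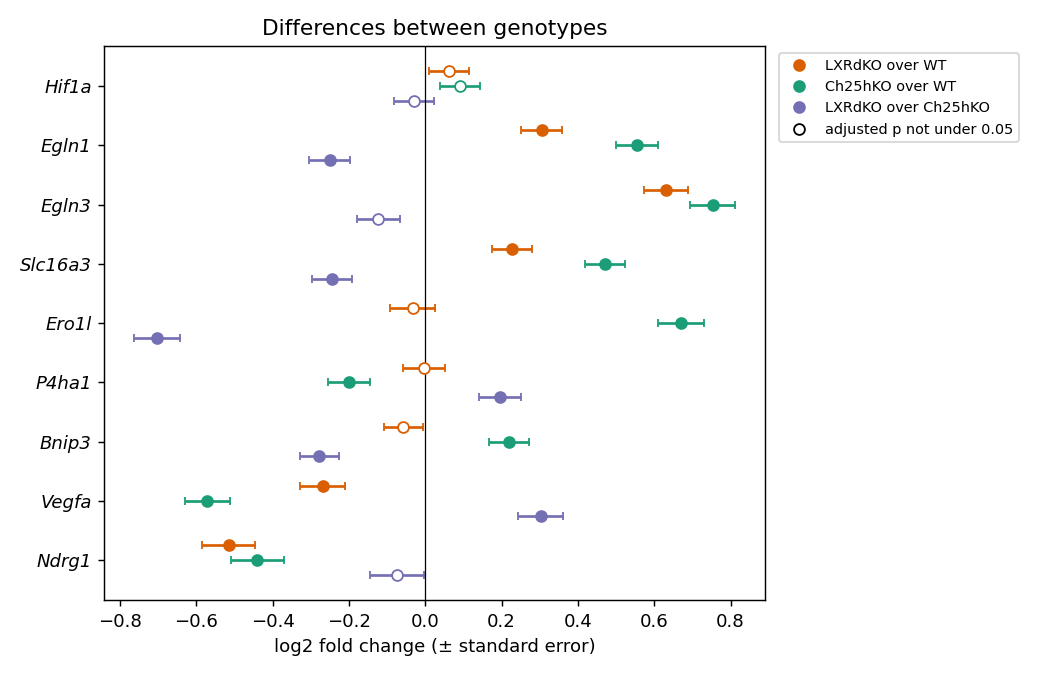
Log2 fold change ± standard error of each gene in LXRdKO over WT, Ch25hKO over WT and LXRdKO over Ch25hKO, with open symbols where the adjusted p was not under 0.05. For Ch25hKO over WT the genes spread from -0.57 for Vegfa to 0.75 for Egln3, and Hif1a is open in all 3 comparisons.

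**Figure D3:**
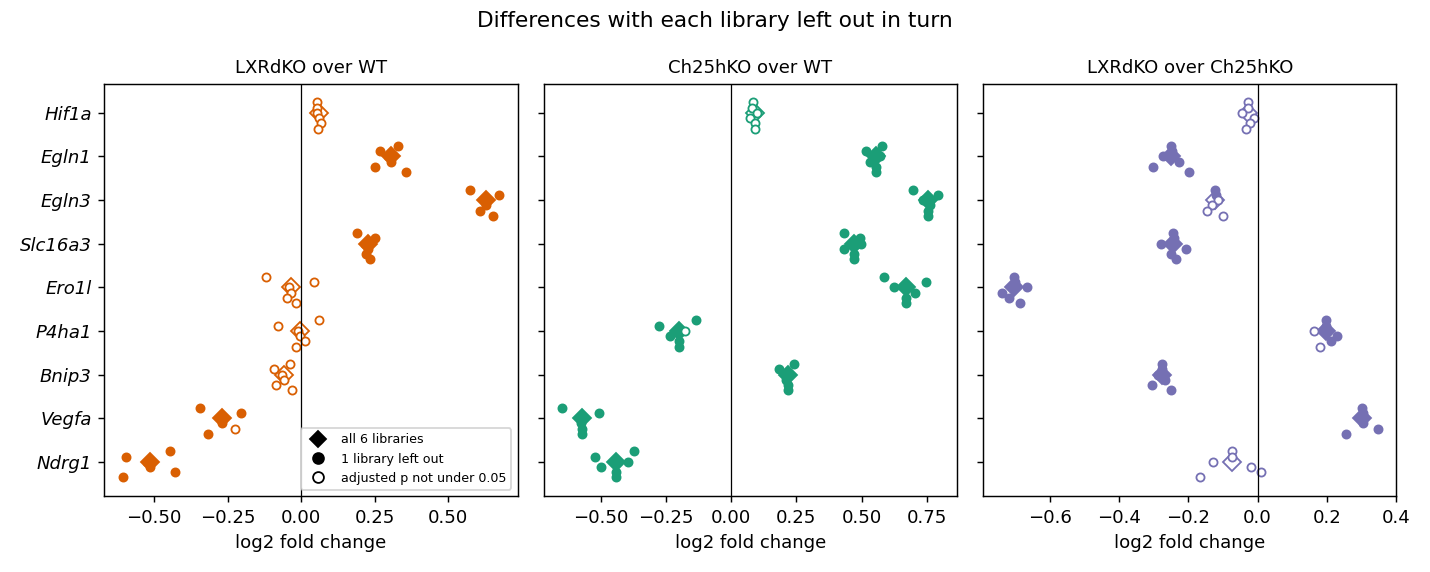
The same log2 fold changes from all 6 libraries (diamonds) and with each library left out in turn (circles), with open symbols where the adjusted p was not under 0.05. No gene changed sign in Ch25hKO over WT, Ero1l and P4ha1 lay on both sides of 0 in LXRdKO over WT, and so did Ndrg1 in LXRdKO over Ch25hKO.

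Levels were compared between genes per kb of exon, with the union of annotated GENCODE exons as length. In WT, Hif1a (132 ± 0.923 CPM per kb, SD, n = 2) and Bnip3 (130 ± 2.72) were the most abundant and differed by less than their spread. P4ha1 (54.1 ± 3.33) and Ero1l (41.7 ± 3.61) followed. Vegfa (23.1 ± 1.75), Slc16a3 (21.1 ± 0.784) and Egln1 (20.5 ± 0.470) were close to each other, Egln3 was lower (11.9 ± 0.651), and Ndrg1 was at the bottom (6.94 ± 0.455). In Ch25hKO, Bnip3 (151 and 153 in its 2 libraries) stood above Hif1a (141 ± 2.31), Ero1l (66.4 ± 2.42) above P4ha1 (47.1 ± 1.48), and Egln3 (20.1 ± 0.170) above Vegfa (15.5 ± 0.0330). In LXRdKO, Hif1a (138 ± 0.768) was above Bnip3 (125 ± 3.22), and Vegfa (19.2 ± 0.856) and Egln3 (18.4 ± 0.396) were within their spread of each other.

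**Figure D4:**
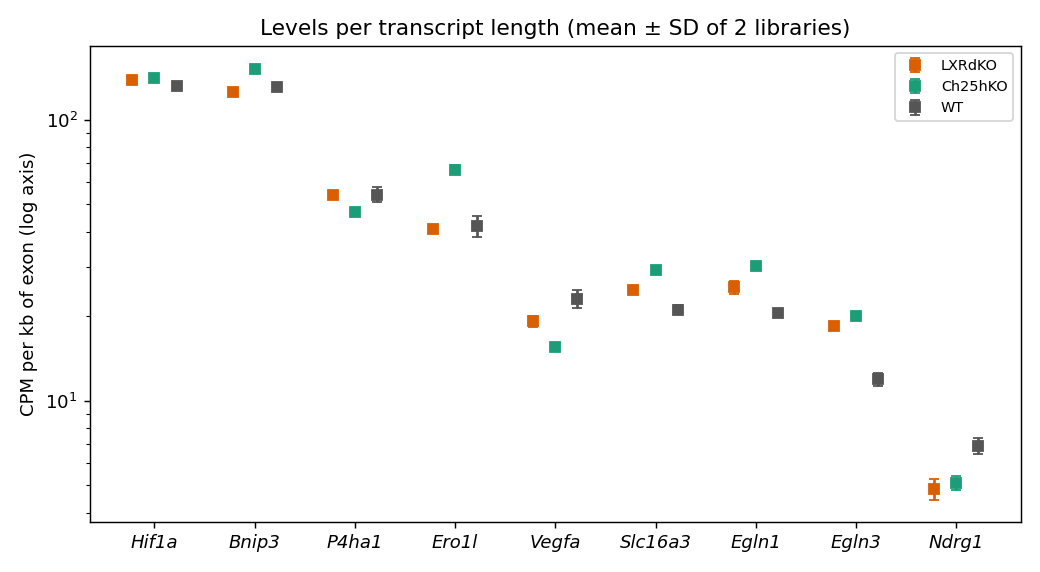
Level of each gene in CPM per kb of exon on a log axis, as the mean ± SD of 2 libraries per genotype, with genes ordered by their WT level. Hif1a and Bnip3 were highest in all genotypes, at 125 CPM per kb or more, and Ndrg1 was lowest, at 6.94 or less.

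The wider pathway was read from lists of genes outside these 9. Of 16 genes of the HIF machinery, all passed the filter on low counts. In LXRdKO over WT 5 were higher and 1 was lower, with a median of 0.04, where 16.4% of all genes tested were higher and 15.5% lower. Of the same genes, 3 were higher and 5 were lower in Ch25hKO over WT, with a median of -0.13, where 19.8% of all genes were higher and 19.5% lower. The 6 of 16 called in LXRdKO and the 8 of 16 in Ch25hKO are near the shares of all genes called, 31.8% and 39.3%, or 40.5% and 49.8% with at least 5 CPM. In LXRdKO over Ch25hKO 7 were higher and 3 lower, with a median of 0.08, where 19.3% of all genes were higher and 18.6% lower. These counts were unsteady: without 1 library or another, the higher genes ranged from 2 to 5 in LXRdKO over WT (3 without WT replicate 1 or LXRdKO replicate 1, 2 without LXRdKO replicate 2) and the lower from 1 to 4 (4 without WT replicate 2). The higher ranged, in Ch25hKO over WT, from 0 to 4 (1 without Ch25hKO replicate 1, 0 without Ch25hKO replicate 2) and the lower from 3 to 6 (3 without WT replicate 1 or either Ch25hKO replicate). Between the knockouts, the higher ranged from 3 to 8 (3 without Ch25hKO replicate 1, 4 without Ch25hKO replicate 2 or LXRdKO replicate 2) and the lower from 0 to 3 (0 without Ch25hKO replicate 2 or LXRdKO replicate 2, 1 without LXRdKO replicate 1).

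Within the machinery, Cited2 encodes a protein that competes with HIF-1α for the coactivators p300 and CBP, and is itself induced by hypoxia. Cited2 averaged 33.1 CPM in LXRdKO, 13.9 CPM in Ch25hKO and 17.8 CPM in WT. It rose 1.86-fold in LXRdKO over WT (0.90 ± 0.07, edgeR adjusted p = 3.92e-08) and fell by 0.36 ± 0.08 in Ch25hKO over WT (edgeR adjusted p = 0.00123). Hif3a, a HIF α paralogue, averaged only 0.477 CPM in LXRdKO and 0.633 CPM in Ch25hKO against 1.20 CPM in WT, and fell by 1.32 ± 0.29 in LXRdKO and 0.91 ± 0.27 in Ch25hKO (edgeR adjusted p = 0.0018 and 0.0129). The call in Ch25hKO did not hold when Ch25hKO replicate 2 was left out (-0.79, edgeR adjusted p = 0.106) or with DESeq2 (-0.93, adjusted p = 0.0856).

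Vhl, the substrate receptor of the ubiquitin ligase, was at -0.01 ± 0.06 in LXRdKO over WT and rose by 0.23 ± 0.06 in Ch25hKO over WT (edgeR adjusted p = 0.00495, lost without Ch25hKO replicate 2 at 0.20, edgeR adjusted p = 0.0653). The hydroxylase genes Hif1an and Egln2 fell by 0.31 ± 0.08 and 0.25 ± 0.07 in Ch25hKO over WT, and both calls were lost without WT replicate 1 (-0.19 and -0.15, edgeR adjusted p = 0.0504 and 0.0874), that of Egln2 also without Ch25hKO replicate 1 (edgeR adjusted p = 0.0524). The ligase subunit genes Rbx1 and Tceb2 were 0.22 ± 0.05 and 0.23 ± 0.06 higher in LXRdKO over WT, and 0.17 ± 0.05 and 0.18 ± 0.06 higher in Ch25hKO over WT. All 4 of these small rises were lost in 1 or more fits without a library, among them Rbx1 without LXRdKO replicate 1 (edgeR adjusted p = 0.0541) and Tceb2 without LXRdKO replicate 2 (edgeR adjusted p = 0.0653), and without either Ch25hKO replicate both rises in Ch25hKO (edgeR adjusted p = 0.0883 to 0.135).

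Among 41 further HIF targets outside glycolysis, 37 passed the filter on low counts. The remaining 4, Car12, Ndufa4l2, Ppp1r3c and Tgfa, had at most 14 counts in any library. In LXRdKO over WT 8 were higher, 15 were lower and 14 did not pass, with a median of -0.02, and 5 were higher without LXRdKO replicate 1. Of all genes tested 16.4% were higher and 15.5% lower there. In Ch25hKO over WT 20 were higher, 8 were lower and 9 did not pass, with a median of 0.27, against 19.8% and 19.5% of all genes higher and lower. Directly, 6 were higher and 20 lower in LXRdKO over Ch25hKO, with a median of -0.24, against 19.3% and 18.6% of all genes.

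Lox, which encodes a collagen crosslinking enzyme, averaged 33.6 CPM in LXRdKO, 87.7 CPM in Ch25hKO and 48.1 CPM in WT. It fell by 0.52 ± 0.06 in LXRdKO over WT (edgeR adjusted p = 1.82e-06) and rose 1.82-fold in Ch25hKO over WT (0.87 ± 0.05, edgeR adjusted p = 1.21e-09). Gys1, which encodes glycogen synthase, was at 0.11 ± 0.06 in LXRdKO (edgeR adjusted p = 0.186) and rose 1.55-fold in Ch25hKO. The cytokine gene Mif rose by 0.52 ± 0.05 in LXRdKO and 0.55 ± 0.05 in Ch25hKO. Hilpda, which encodes a lipid droplet protein, fell by 0.50 ± 0.06 in LXRdKO and 0.59 ± 0.06 in Ch25hKO.

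An inflammatory and a vascular HIF target were lowest in LXRdKO. Nos2, the inducible nitric oxide synthase gene, averaged 742 CPM in LXRdKO, 1202 CPM in Ch25hKO and 1459 CPM in WT, with log2 fold changes over WT of -0.98 ± 0.06 and -0.28 ± 0.06. Edn1, which encodes the vasoconstrictor endothelin-1, fell by 0.85 ± 0.07 in LXRdKO and 0.28 ± 0.06 in Ch25hKO. Trf, the transferrin gene, rose by 0.91 ± 0.06 in LXRdKO. Nos2 and Edn1 were also lower in LXRdKO than in Ch25hKO, at -0.70 ± 0.06 and -0.57 ± 0.07. In Ch25hKO over WT, the Trf value of 0.16 ± 0.06 passed narrowly (edgeR adjusted p = 0.0499) and was lost in every fit that left out a library other than WT replicate 1, with 0.04 without WT replicate 2 (edgeR adjusted p = 0.586). It was also lost with RLE scaling, DESeq2, limma-voom, the filter at 5 CPM, only the libraries compared and the replicate block (adjusted p = 0.0507 to 0.136).

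The third list held 20 glycolytic HIF targets, of which 19 passed the filter and Eno1, with at most 5 counts, did not. In LXRdKO over WT 4 were higher and 4 were lower, with 1 lower without LXRdKO replicate 2, and the median was 0.03. Of all genes tested 16.4% were higher and 15.5% lower. Against WT, 12 were higher and 1 was lower in Ch25hKO, with 3 lower without WT replicate 2, and the median was 0.21, against 19.8% and 19.5% of all genes higher and lower. In LXRdKO over Ch25hKO 1 was higher and 7 were lower, against 19.3% and 18.6% of all genes, with a median of -0.14, and 0 to 2 were higher with 1 library left out (2 without either WT replicate, 0 without either Ch25hKO replicate or LXRdKO replicate 2). Gpi1, which encodes an early glycolytic isomerase, averaged 210 CPM in LXRdKO, 325 CPM in Ch25hKO and 236 CPM in WT. It rose by 0.46 ± 0.06 in Ch25hKO over WT, and fell by 0.17 ± 0.06 in LXRdKO over WT, a call lost without WT replicate 2 or LXRdKO replicate 2 (-0.14 and -0.12, edgeR adjusted p = 0.0512 and 0.269). The hexokinase gene Hk2 was at 0.13 ± 0.05 in LXRdKO (edgeR adjusted p = 0.0559) and rose by 0.41 ± 0.05 in Ch25hKO. Aldoc rose by 0.40 ± 0.08 in LXRdKO and 0.59 ± 0.08 in Ch25hKO, and Gapdh by 0.37 ± 0.06 and 0.39 ± 0.06. Pdk1, whose product slows the use of pyruvate within mitochondria, rose by 0.42 ± 0.06 in LXRdKO and 0.28 ± 0.06 in Ch25hKO. Pfkfb3, which makes an activator of glycolysis, fell by 0.51 ± 0.05 in LXRdKO and was at 0.10 ± 0.05 in Ch25hKO (edgeR adjusted p = 0.176). Gapdh and Mif have near-identical copies in the mouse genome, so their counts are uncertain. Whether the low count of Eno1 reflects little transcript or reads lost in alignment or counting was not tested.

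**Figure D5:**
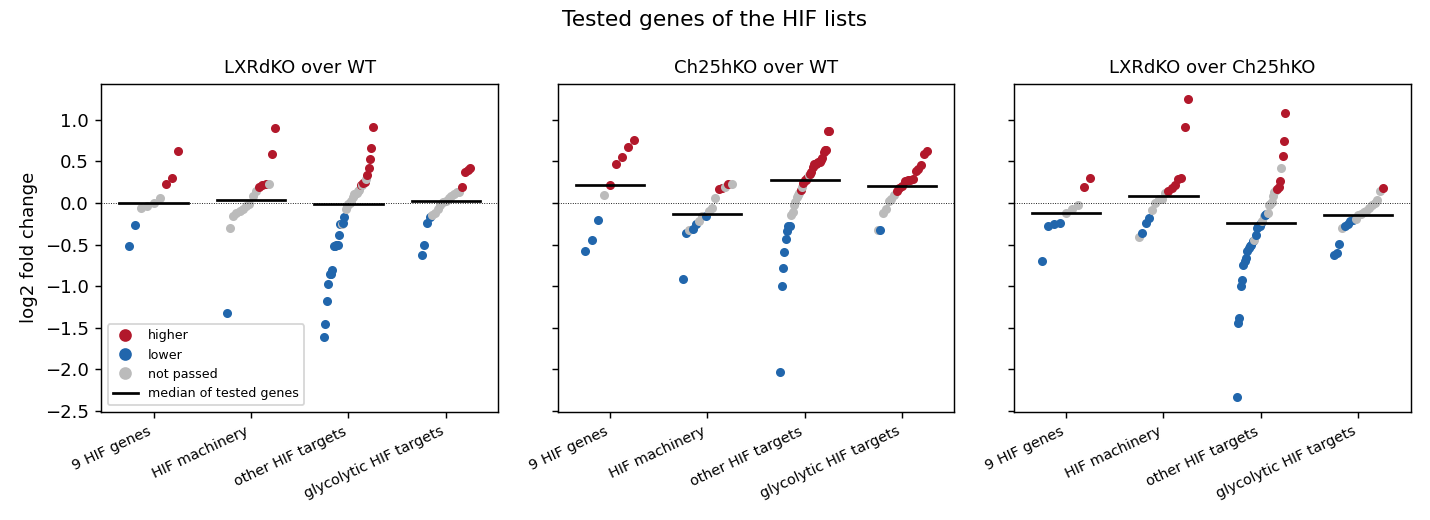
Log2 fold changes of the tested genes of each HIF list in the 3 comparisons, coloured by whether they were called higher, lower or neither, with a line at the median. Medians in Ch25hKO over WT were 0.22 for the 9 genes, -0.13 for the machinery, 0.27 for the other targets and 0.21 for the glycolytic targets, and in LXRdKO over WT they lay between -0.02 and 0.04.

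Markers of cell types were read beside these genes. For reference, 16.4% of all genes tested were higher and 15.5% lower in LXRdKO over WT. In Ch25hKO over WT the shares were 19.8% and 19.5%. Macrophage markers had a summed level of 25270 to 25310 CPM in LXRdKO, 20650 to 21380 CPM in Ch25hKO and 20740 to 22460 CPM in WT, with none of the 10 listed in the table at 0, and 8 were higher and 0 lower in LXRdKO over WT and 1 higher and 3 lower in Ch25hKO over WT. Stromal markers summed to 15.8 to 17.8 CPM in LXRdKO, 30.9 to 33.5 CPM in Ch25hKO and 14.1 to 14.7 CPM in WT. Of their 7 tested members, 2 were higher and 0 lower in LXRdKO and 6 were higher and 0 lower in Ch25hKO, and Thy1 had 0 counts in Ch25hKO and WT. Dendritic cell markers summed to 25.2 to 27.9 CPM in LXRdKO, 16.9 to 17.5 CPM in Ch25hKO and 32.4 to 32.8 CPM in WT, and of 9 tested 0 were higher over WT in either knockout, 2 were lower in LXRdKO and 4 were lower in Ch25hKO. Neutrophil markers summed to 39.2 to 39.6 CPM in LXRdKO, 69.3 to 72.1 CPM in Ch25hKO and 52.9 to 53.9 CPM in WT, and of 6 tested 1 was higher and 4 were lower in LXRdKO over WT, 2 were higher and 0 lower in Ch25hKO over WT, and Elane was at 0 in all but WT replicate 1. Lymphoid markers summed to at most 4.05 CPM in any library, and of 3 tested 1 was lower over WT in each knockout. Erythroid, mast cell and megakaryocyte markers summed to 80.8 to 93.9 CPM, with Hba-a1 and Hbb-b1 at 0 throughout, and of 5 tested 1 was higher and 2 lower in LXRdKO over WT, and 1 higher and 3 lower in Ch25hKO over WT. The neutrophil sum was mostly S100a8, with 16.4 and 16.6 CPM in LXRdKO, 48.1 and 50.4 CPM in Ch25hKO and 35.9 and 35.1 CPM in WT. Other neutrophil markers were ordered differently, with Mmp8 highest in LXRdKO and Ngp and Mpo highest in WT. The summed stromal and neutrophil levels were both highest in the Ch25hKO libraries. So were Lox, Egln1, Egln3, Slc16a3, Ero1l, Bnip3 and Hif1a, of which Hif1a did not pass the test. Vegfa, P4ha1 and Ndrg1 went the other way and were lower in Ch25hKO than in WT. The summed macrophage level was highest in LXRdKO. The part of other cells in these differences was not tested.

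Likeness to other genes was described by Pearson's r of log2 CPM over the 6 libraries, among 7640 named genes with a mean of at least 5 CPM. The genes most like Egln3 were Rasgrp1 and Klf3, at r = 0.999 and 0.998. For Egln1 they were Ano6 (0.997) and Khsrp (0.996), for Slc16a3 Gorasp2 (0.998) and Klhdc3 (0.997), and for Ero1l Ndufb3 (0.996) and Pld1 (0.996). For Bnip3 they were Nck1 (0.998) and Rab11a (0.996), and for P4ha1 Bcl2a1d (0.996) and Slc12a7 (0.995). Vegfa was closest to Cpeb4 (0.998) and Abl2 (0.994), Ndrg1 to Odc1 (0.997) and Ugcg (0.995), and Hif1a to Rplp2 (0.997) and Adrbk1 (0.994). With 6 libraries in 3 genotypes such values are common: 85 to 314 of the 7640 genes had an r over 0.95 with any 1 of the 9 genes.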

How the data were processed

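The values are raw counts of reads, deposited by the authors as a single table of gene symbols by libraries, without normalization. Reads were aligned to mouse mm10 with STAR, per the series' design text, and CASAVA, STAR 2.3.0 and HTSeq are named in the submitters' processing notes. No annotation, counting mode or strand setting was given in the sources used here. Libraries were made with Ovation and Encore kits, per the labels' protocols, and no molecular identifiers are named, so reads may not be independent molecules.

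Counts of 6 libraries were analysed with edgeR 4.0.16 in R 4.3.3. Genes were kept by filterByExpr, which left 12923 of 23337 genes, with 99.979% of the counts. A model with 1 mean per genotype, TMM scaling and robust quasi-likelihood dispersions was fitted to all libraries. P-values were adjusted over all genes tested by the Benjamini-Hochberg method. The genotypes shared these dispersions, although WT libraries varied most. With only the libraries compared, 36% of genes were called in Ch25hKO over WT, 27.8% in LXRdKO over WT and 44.5% in LXRdKO over Ch25hKO. The fit to all libraries called 39.3%, 31.8% and 37.9%. The common biological coefficient of variation was 4.41%. Intervals use the moderated degrees of freedom. The steps were tested on simulated data. Total counts were 41650513 to 45872964 per library, and variation between libraries beyond counting error limits the precision.

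The 9 genes, the pathway lists, the macrophage, stromal, dendritic, neutrophil, lymphoid and erythroid-mast-megakaryocyte marker lists and the tests were chosen with earlier results of these data known. Named genes outside the 9 were the 4 of each HIF list with the lowest p in each knockout over WT, and the 2 most alike each of the 9; a gene that this rule names and a marker are not reported here. Results were recomputed with RLE and upper-quartile scaling, DESeq2 1.42.0, limma-voom (limma 3.58.1), no low-count filter, at least 5 CPM in at least 2 libraries, only the libraries compared, a replicate block and each library left out, after which the lone library of a genotype was assumed to vary like the other groups. Gene positions are from GENCODE (GRCm38, which is mm10).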

Additional observations from a re-analysis of the deposited data

How the results depend on the processing

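Over 15 alternatives, the 9 genes gave 135 values in each comparison. In Ch25hKO over WT 134 kept both direction and side of the threshold, in LXRdKO over WT 130 and in LXRdKO over Ch25hKO 129. The numbers of the 9 genes called were moved by over 1.5 times only with a library left out: the lower genes in LXRdKO over WT ranged from 1 to 2, and the higher genes in LXRdKO over Ch25hKO from 1 to 2. The other counts stayed at 5 higher and ranged from 2 to 3 lower in Ch25hKO over WT, stayed at 3 higher in LXRdKO over WT, and ranged from 4 to 5 lower in LXRdKO over Ch25hKO. Direction turned for differences near 0 that had not passed the test. With 1 library left out, log2 fold changes in LXRdKO over WT ranged from -0.119 to 0.044 for Ero1l (highest without WT replicate 2), -0.0788 to 0.0616 for P4ha1 (above 0 without WT replicate 1 or LXRdKO replicate 1), -0.217 to 0.0278 for Hif1an and -0.178 to 0.036 for Egln2 (both highest without WT replicate 1), and -0.0355 to 0.0145 for Vhl (highest without LXRdKO replicate 2). P4ha1 was also at 0.0054 without a low-count filter. In LXRdKO over Ch25hKO they ranged from -0.166 to 0.0102 for Ndrg1 (highest without LXRdKO replicate 1) and from -0.0492 to 0.00439 for Mif (highest without LXRdKO replicate 2). A left-out library leaves fewer samples in the fit, and otherwise the cause was not tested.

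Libraries with the same replicate number did not deviate together in every pair of genotypes (r = -0.06 for LXRdKO and WT, -0.31 for Ch25hKO and WT, 0.12 for LXRdKO and Ch25hKO, over 8141 genes), so the numbers were not taken as pairs. With a replicate block, 5 of the 9 genes were higher and 3 lower in Ch25hKO over WT, 3 and 2 in LXRdKO over WT, and 2 and 4 in LXRdKO over Ch25hKO, as without it. A block with the WT numbers exchanged, added after seeing the data, gave the same counts, and over all genes 2730 higher and 2675 lower in Ch25hKO over WT against 2372 and 2393 with the block as numbered. Over all genes, counts moved by over 1.5 times only with a library left out. Against 2557 higher in Ch25hKO over WT there were 1501 without Ch25hKO replicate 1, and against 2116 higher and 1999 lower in LXRdKO over WT there were 1292 and 1198 without LXRdKO replicate 1 and 1314 and 1265 without LXRdKO replicate 2. Against 2406 lower in LXRdKO over Ch25hKO there were 1585 without Ch25hKO replicate 1 and 1504 without LXRdKO replicate 2. The median log2 fold change of all genes lay between -0.0174 and 0.0112 in every fit. With 2 libraries per genotype, differences as small as those of Hif1a did not pass the test.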

Other observations

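Some HIF targets of the wider lists were called higher than WT in Ch25hKO and lower than WT in LXRdKO. The share of all genes with this pattern was not counted. Lox and Gpi1, given above, had it, and so did Ddit4 (0.27 ± 0.10 in Ch25hKO, -1.18 ± 0.12 in LXRdKO). The Ddit4 call in Ch25hKO did not hold with DESeq2 (0.26, adjusted p = 0.217). Adm, Tfrc, Hmox1 and Ankrd37 were chosen for this pattern after their values were seen, and the comparisons share the WT libraries. Their values are therefore a description and carry no test. Adm, which encodes the vasodilator peptide adrenomedullin, had 0.934 and 1.22 CPM in LXRdKO, 5.74 and 5.09 CPM in Ch25hKO, and 2.66 and 3.27 CPM in WT. Its log2 fold change was -1.46 ± 0.19 in LXRdKO over WT and 0.87 ± 0.15 in Ch25hKO over WT. Tfrc, the transferrin receptor gene, had 15.7 and 14.5 CPM in LXRdKO, 30.9 and 29.6 CPM in Ch25hKO, and 22.2 and 20.8 CPM in WT. It was at -0.51 ± 0.07 in LXRdKO over WT and 0.49 ± 0.07 in Ch25hKO over WT.

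Hmox1, which encodes the haem-degrading enzyme haem oxygenase-1, had 1975 and 2000 CPM in LXRdKO, 3275 and 3373 CPM in Ch25hKO, and 2728 and 2908 CPM in WT. Its log2 fold changes were -0.50 ± 0.06 in LXRdKO over WT and 0.24 ± 0.06 in Ch25hKO over WT. Ankrd37, a hypoxia-induced ankyrin repeat gene, had 19.5 and 20.5 CPM in LXRdKO, 30.7 and 32.5 CPM in Ch25hKO, and 25.4 and 26.7 CPM in WT. It was at -0.38 ± 0.07 in LXRdKO over WT and 0.28 ± 0.06 in Ch25hKO over WT.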
